A study of Gallus gallus with 24 samples.

Results

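A set of 8 genes of the endoplasmic reticulum (ER) stress response were followed in the hypothalamus of broiler chickens: HSPA5, HERPUD1, HSP90B1, XBP1, ATF4, PDIA4, DNAJB9 and SDF2L1. They were chosen by symbol, with earlier results of these data known. Each matched 1 row among the 16779 genes of the count table. All 8 were kept by the filter on low counts, as were 13742 genes in all. The birds were Ross 308, a commercial meat line. They ate a basal diet or a diet with 1% L-citrulline, an amino acid from which arginine is made, and from day 28 they were kept at 24 or 35 °C at 60% relative humidity. Both diets were given at both temperatures, which made 4 groups. Each held 6 birds, 1 taken from each replicate of 12 birds at day 42, and each bird gave 1 RNA-seq library.

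The lumen of the ER is where secreted and membrane proteins fold. In mammals, unfolded protein there is sensed by ERN1 (IRE1), EIF2AK3 (PERK) and ATF6. ERN1 splices XBP1 mRNA, EIF2AK3 phosphorylates eIF2-alpha and so favours translation of ATF4, and both factors, with ATF6, raise transcription of chaperones and of degradation genes. Hypothalamic neurons that make peptide hormones pass much protein through the ER. Gene counts measure total transcript, so neither the splicing of XBP1 nor the translation of ATF4 is seen in them.

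The genes lie on 5 chromosomes of the GRCg6a build, and values were read over whole genes. On chromosome 1 are ATF4 at 50599346 to 50602300, HSP90B1 at 54708818 to 54718953 and DNAJB9 at 28562689 to 28571188, all on the minus strand. PDIA4 lies on chromosome 2 at 54400025 to 54411534 and HSPA5 on chromosome 17 at 9890855 to 9894996, both on the minus strand. HERPUD1 lies on chromosome 11 at 615984 to 623539 on the plus strand. Chromosome 15 holds XBP1 at 8001344 to 8004755 on the minus strand and SDF2L1 at 678727 to 684344 on the plus strand.

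Libraries held 12635239 to 15001037 counts on genes. The dissected tissue carried hypothalamic transcripts in every bird: AVP lay between 615 and 6722 CPM (a count as a share of its library's scaled total), NPY between 38.4 and 207 CPM and NKX2-1 between 0.41 and 12.0 CPM, while AGRP stayed under 1 CPM in each bird. TTR, the most abundant choroid plexus transcript, was above 500 CPM in 3 libraries, all at 24 °C (basal diet bird 6 and L-citrulline birds 1 and 5). The labels do not give the birds' sex. Genes of chromosome W, which is carried by hens, split the libraries into 12 high and 12 low, with 2 high birds in each basal diet group and 4 in each L-citrulline group, so the W-linked signal moved with diet.

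The deposited FPKM (counts divided by gene length and library total) is the scale that allows genes to be compared. On it the lumenal chaperones HSP90B1 and HSPA5 stood highest. HSP90B1 (GRP94, the ER member of the HSP90 family) averaged 190.2 ± 20.6 FPKM (SD, n = 24 birds) and HSPA5 (BiP, the ER member of the HSP70 family) 176 ± 21.3 FPKM. The transcription factors followed, ATF4 at 154 ± 11.1 FPKM and XBP1 at 81.9 ± 6.73 FPKM. PDIA4, a protein disulphide isomerase, averaged 39.9 ± 4.05 FPKM and SDF2L1, a lumenal partner of BiP, 30.4 ± 2.02 FPKM. Lowest were DNAJB9 (ERdj4, a J-domain cochaperone of BiP) at 14.6 ± 1.41 FPKM and HERPUD1, a membrane protein of ER-associated degradation, at 10.4 ± 1.77 FPKM. HSP90B1 exceeded HSPA5 in 20 of 24 birds and HSPA5 exceeded ATF4 in 19 of 24, so the order of the top 3 was not the same in each bird. Each lower neighbour was below the gene above it in all 24 birds, and 15 birds had the whole order of 8. The ranges of PDIA4 and SDF2L1 over the birds overlapped, as did those of DNAJB9 and HERPUD1. The order between genes rests on their annotated lengths, which were not checked. For PDIA4 the length was 2378 and for SDF2L1 3150. In CPM, which takes no account of length, they averaged 92.9 and 97.1 on the basal diet at 24 °C.

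None of the 8 genes passed the test in any of the 7 comparisons made (edgeR quasi-likelihood test, Benjamini-Hochberg adjusted p under 0.05 over 13742 genes), and neither did any other gene: the share called was 0% in each comparison. DESeq2 and limma voom called none of the 8 either. The values below therefore describe sizes and their errors. Because each group enters more than 1 comparison, the comparisons share birds, and like signs in them are not separate evidence.

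**Figure D1:**
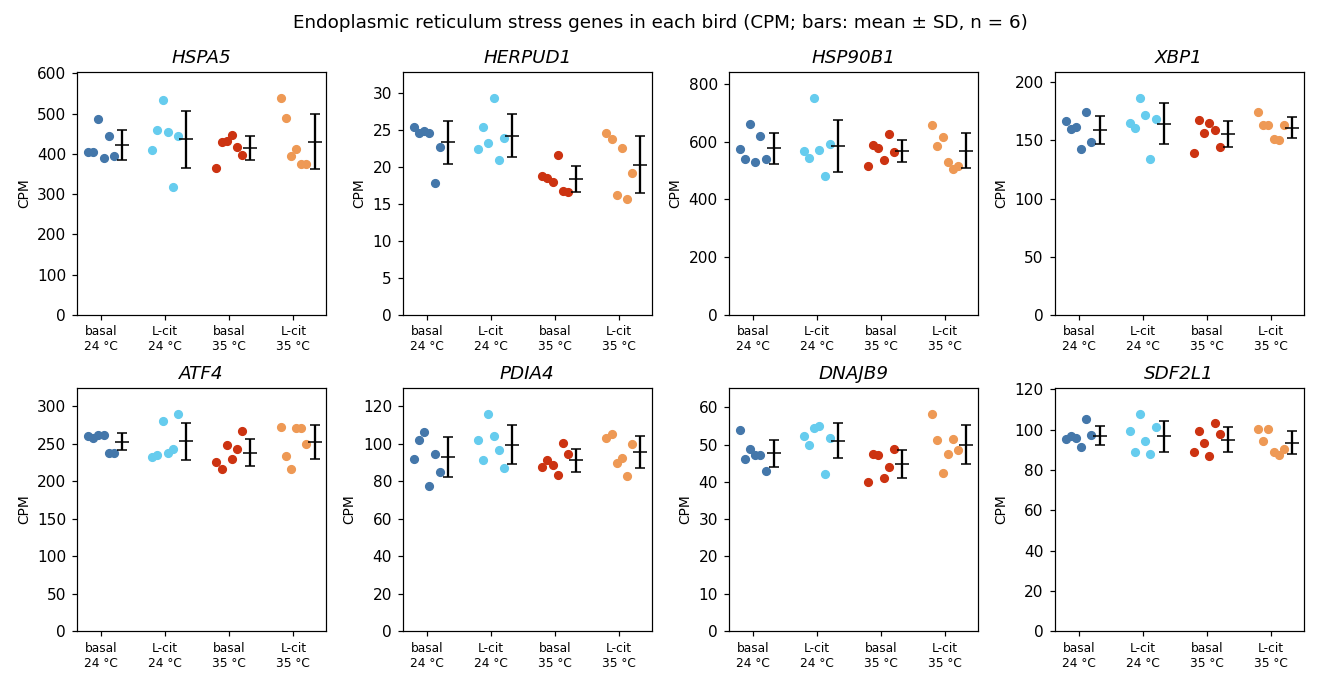
Level of each of the 8 genes in every bird, in CPM on a linear axis from 0, by diet and temperature (L-cit, L-citrulline). Points are birds and bars the mean ± SD of 6 birds. HERPUD1 averaged 23.3 and 24.2 CPM in the 24 °C groups and 18.4 and 20.3 CPM in the 35 °C groups, and for the other 7 genes the 4 groups lie over each other.

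HERPUD1 had the lowest unadjusted p of the 8 genes in the heat comparisons. On the basal diet at 24 °C the birds measured 25.4, 24.6, 24.8, 24.6, 17.8 and 22.8 CPM, and at 35 °C 18.8, 18.5, 18.0, 21.6, 16.8 and 16.6 CPM. The ranges overlapped through 1 bird only, the control bird at 17.8 CPM, and the other 5 controls lay above every heated bird. With L-citrulline the birds at 24 °C measured 22.5, 25.4, 23.2, 29.3, 20.9 and 23.9 CPM, and at 35 °C 24.5, 23.8, 16.2, 22.6, 15.6 and 19.2 CPM. Here 3 heated birds lay below all 6 unheated ones and 3 lay among them.

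On the basal diet the mean level of HERPUD1 was 21.2% lower at 35 °C (95% confidence interval 7.23% to 33.1% lower), a log2 fold change of -0.34 ± 0.11 (SE, 6 against 6 birds) with an unadjusted edgeR p of 0.00611 and an adjusted p of 0.9997. On L-citrulline it was 16.1% lower (1.19% to 28.7% lower), a log2 fold change of -0.25 ± 0.11 with an unadjusted edgeR p of 0.0365 and an adjusted p of 0.721. The heat effect did not differ detectably between the diets (interaction 0.09 ± 0.16 on the log2 scale, edgeR adjusted p 0.933). Averaged over the diets the log2 fold change was -0.30 ± 0.08, unadjusted edgeR p 0.00115 and adjusted p 0.9998, the rank 7 p of all genes tested, and 11 of the 12 heated birds lay below the median of the 12 unheated ones.

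HERPUD1 was thus the 1 of 8 genes at an unadjusted p under 0.05 for heat on the basal diet, where 3.69% of all genes were, for heat on L-citrulline, where 6.71% were, and for heat averaged over the diets, where 3.03% were. In the authors' deposited table, made with DESeq, HERPUD1 had a log2 fold change of -0.346 on the basal diet (p = 0.00484, adjusted p 1), and in the authors' deposited table for the L-citrulline diet one of -0.259 (p = 0.0820, adjusted p 1). Leaving out 1 library at a time kept the basal diet value between -0.41 and -0.32. The L-citrulline value ranged from -0.32 to -0.19, and its unadjusted edgeR p reached 0.112 without L-citrulline bird 4 at 24 °C. The locus is overlapped on the same strand by CETP, whose mean count was 7.7 against 293.7 for HERPUD1.

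The other 7 genes showed much smaller differences with heat. HSPA5 measured 389, 406 and 486 CPM (lowest, median, highest) on the basal diet at 24 °C and 365, 424 and 446 CPM at 35 °C. On L-citrulline it measured 318, 448 and 534 CPM at 24 °C and 374, 402 and 539 CPM at 35 °C, so both pairs of groups overlapped over most of their range. Its mean was 1.46% lower at 35 °C on the basal diet, with a 95% confidence interval from 14.8% lower to 13.9% higher. On L-citrulline the mean was 1.37% lower, with an interval from 14.7% lower to 14.0% higher.

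HSP90B1 ranged from 529 to 663 CPM on the basal diet at 24 °C (median 556) and from 515 to 626 CPM at 35 °C (median 571). Its log2 fold change with heat was -0.02 ± 0.09 on the basal diet and -0.04 ± 0.09 on L-citrulline. For XBP1 the basal diet birds spanned 143 to 175 CPM at 24 °C (median 161) and 139 to 168 CPM at 35 °C (median 158). These 2 genes too had groups that overlapped almost throughout, and the XBP1 intervals ran from 11.3% lower to 7.47% higher on the basal diet and from 11.1% lower to 7.71% higher on L-citrulline.

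For ATF4, the basal diet birds measured 237 to 262 CPM at 24 °C (median 258) and 215 to 266 CPM at 35 °C (median 236), a log2 fold change of -0.09 ± 0.07. On L-citrulline they measured 232 to 289 CPM at 24 °C (median 240) and 216 to 272 CPM at 35 °C (median 260.0), a log2 fold change of -0.0046 ± 0.07. The interaction was 0.08 ± 0.10 (edgeR adjusted p 0.893).

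Among the remaining chaperone partners, PDIA4 averaged 92.9 ± 10.7 CPM (SD, n = 6) on the basal diet at 24 °C and 91.1 ± 6.04 CPM at 35 °C. SDF2L1, the least variable of the 8 between birds of a group, averaged 97.1 ± 4.65 and 95.1 ± 6.34 CPM, and its interval for heat on the basal diet, 9.58% lower to 6.09% higher, was the narrowest. DNAJB9 averaged 47.7 ± 3.61 and 44.8 ± 3.65 CPM. On L-citrulline the corresponding means at 24 and 35 °C were 99.6 and 95.5 CPM for PDIA4, 96.6 and 93.6 CPM for SDF2L1 and 51.0 and 49.9 CPM for DNAJB9.

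All 8 log2 fold changes with heat were below 0 on each diet, with medians of -0.03 and -0.04 against 0.00037 and 0.0066 over all genes tested, of which 49.9% and 47.6% were below 0. Since the genes vary together across birds (below), these signs are not independent of each other. Without 1 bird of the basal diet at 24 °C (bird 3) the count on the basal diet was 5 of 8, and without L-citrulline bird 3 at 24 °C the count on L-citrulline was 4 of 8.

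**Figure D2:**
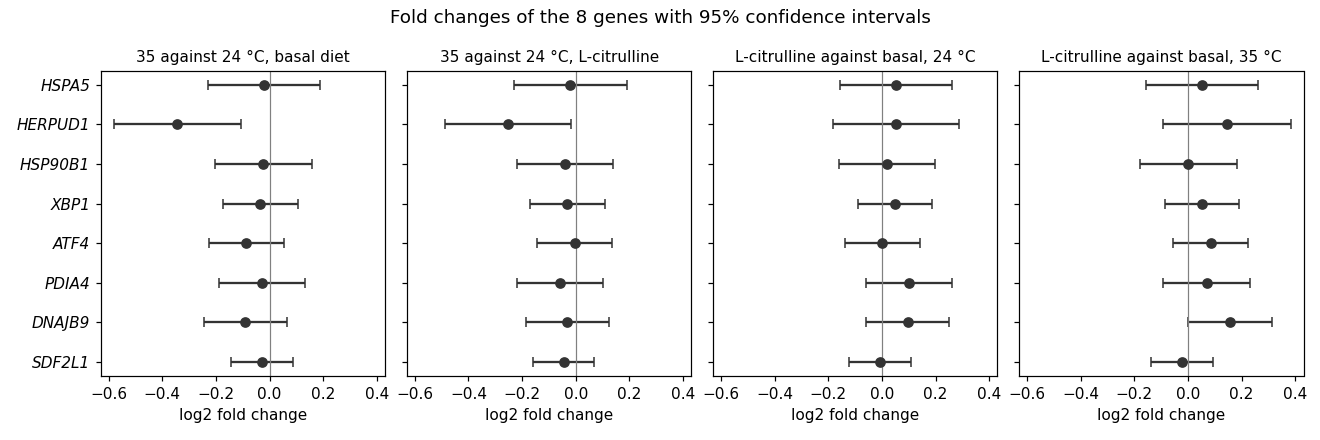
Log2 fold changes of the 8 genes in the 4 comparisons of 2 groups, with 95% confidence intervals from the edgeR fit (6 against 6 birds). Only HERPUD1 with heat, on each diet, and DNAJB9 with L-citrulline at 35 °C have intervals that leave out 0, before adjustment for the 13742 genes tested.

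L-citrulline was compared with the basal diet at each temperature. At 24 °C none of the 8 genes had an unadjusted p under 0.05, where 6.97% of all genes did, and at 35 °C 1 did, DNAJB9, where 6.43% did. DNAJB9 measured 39.9, 47.4, 47.2, 41.1, 44.1 and 48.8 CPM on the basal diet at 35 °C and 58.1, 51.2, 42.4, 47.5, 51.6 and 48.6 CPM with L-citrulline. Of the L-citrulline birds, 3 of 6 lay above every basal diet bird, and the rest lay within the basal range. The log2 fold change was 0.16 ± 0.07 (unadjusted edgeR p 0.0476, adjusted p 0.747), and at 24 °C it was 0.10 ± 0.07 (adjusted p 0.846). In the authors' deposited table, made with DESeq, the DNAJB9 value at 35 °C was 0.157 (p = 0.209). It was also not under an unadjusted p of 0.05 at 35 °C with DESeq2, limma voom, total counts, no filter, the replicate block, the W-linked term or only the groups compared.

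Averaged over the temperatures, DNAJB9 was 9.18% higher with L-citrulline (1.21% to 17.8%, unadjusted edgeR p 0.0251, adjusted p 0.796), the 1 of 8 genes at an unadjusted p under 0.05 where 5.48% of all genes were. In the fit with a W-linked term that value was 0.08 on the log2 scale, with an unadjusted edgeR p of 0.113, against 0.13 without the term. Diet and W-linked signal were unequally combined (2 high birds in each basal diet group, 4 in each L-citrulline group), and the part of either in the DNAJB9 value was not tested beyond this fit.

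The 7 genes other than DNAJB9 had L-citrulline intervals that spanned 0 at both temperatures. HSPA5 was 3.68% higher at 24 °C (10.3% lower to 19.8% higher) and 3.77% higher at 35 °C (log2 fold change 0.05 ± 0.10). With the W-linked term its log2 fold changes were 0.0056 and 0.0080. PDIA4 had log2 fold changes of 0.10 ± 0.08 and 0.07 ± 0.08, and HERPUD1 of 0.05 ± 0.11 and 0.15 ± 0.11. In the interaction of heat and L-citrulline none of the 8 genes had an unadjusted p under 0.05, where 7.56% of all genes did. Of the 8 genes, 7 had log2 fold changes above 0 at each temperature and SDF2L1 had them below, with medians of 0.05 and 0.06 against 0.0067 and 0.0058 over all genes, of which 47.6% and 48.2% were below 0. The count at 24 °C was 4 of 8 without L-citrulline bird 3. At 35 °C it was 5 of 8 without L-citrulline bird 1. It was 6 of 8 with the W-linked term, the replicate block, limma voom, total counts, no filter or only the groups compared. Without the libraries of high TTR it was 6 of 8 as well.

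Bird to bird, within groups, most pairs of the 8 genes had a positive correlation. After each group's mean was taken off, 27 of the 28 pairs had a Pearson r above 0 over the 24 birds. The median r of these pairs was 0.471. Over all pairs of genes tested the median was -0.001 and the 95th percentile 0.455, so the members' median lay near that percentile. Those pairs were not matched for level. The mean level of HSP90B1 was above 98.8% of genes, that of HSPA5 above 98.2% and that of HERPUD1 above 45.1%. How rare such an r is among genes of like level was not tested. The median of the 28 pairs was 0.368 without L-citrulline bird 5 at 24 °C and 0.322 without the 3 libraries of high TTR. All libraries share the tissue dissection, and the correlations are across birds. With p from 100000 permutations of birds within groups, adjusted over the 28 pairs, 8 pairs passed by Pearson, 4 by Spearman, and 4 by both. The permutation test was not run on pairs of other genes, so the share that would pass among them is not known.

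The 4 pairs that passed by both joined HSPA5, HSP90B1, XBP1 and SDF2L1. HSP90B1 with SDF2L1 had r = 0.816 and rho = 0.814 (permutation adjusted p 0.00056 and 0.00028), and r was 0.747 without the 2 birds farthest from the median. HSPA5 with HSP90B1 had r = 0.805 and rho = 0.725 (permutation adjusted p 0.000933 and 0.00273), r was 0.732 without the 2 farthest birds, and within the 4 groups its r was 0.972, 0.864, 0.446 and 0.771 (basal and L-citrulline at 24 °C, then basal and L-citrulline at 35 °C, 6 birds each). HSPA5 with XBP1 had r = 0.784 and rho = 0.708 (permutation adjusted p 0.00056 and 0.000933), with r = 0.670 without the 2 farthest birds. HSP90B1 with XBP1 had r = 0.756 and rho = 0.752 (permutation adjusted p 0.00343 and 0.00028), with r = 0.620 without them. A bird high in one gene of such a pair was thus mostly high in the other.

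HERPUD1 and ATF4 had lower correlations with that group. HERPUD1 had r = 0.476 with HSPA5, its highest, 0.053 with HSP90B1 and -0.236 with SDF2L1, the only pair below 0. Its r with HSPA5 was -0.235 and 0.518 in the unheated basal and L-citrulline birds, and 0.34 and 0.811 in the heated ones. With PDIA4 it was, in the same order, -0.0012, 0.029, -0.887 and 0.822. These pooled values thus join groups of birds of unlike sign, and a difference between those groups was not tested. Over all birds, ATF4 had r = 0.478 with DNAJB9, its highest, 0.20 with HSPA5 and 0.0078 with XBP1. Against the mean of the other 7 genes, r was 0.842 for HSPA5, 0.805 for HSP90B1 and 0.727 for XBP1, but 0.211 for HERPUD1 and 0.225 for ATF4.

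**Figure D3:**
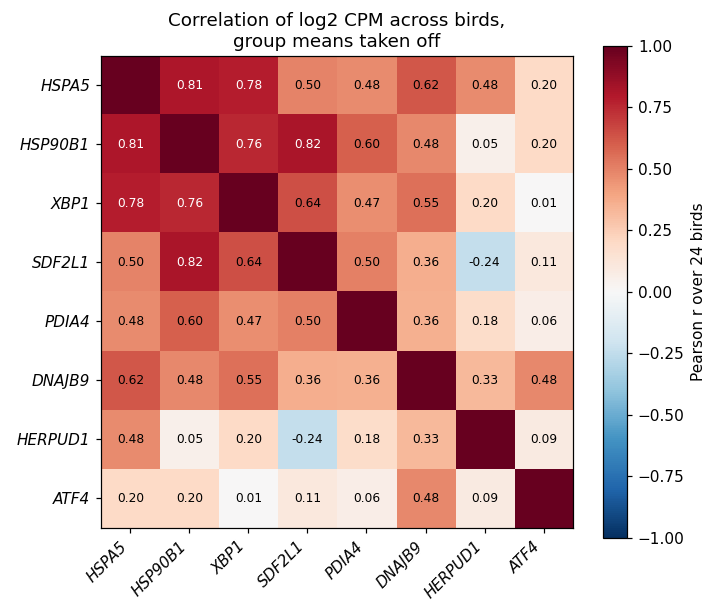
Pearson r of log2 CPM between the 8 genes over 24 birds, with group means taken off, on a colour scale from -1 to 1. The highest values, 0.756 to 0.816, join HSPA5, HSP90B1 and XBP1 with each other and HSP90B1 with SDF2L1, and the rows of HERPUD1 and ATF4 are pale but for 1 cell each (0.476 and 0.478).

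**Figure D4:**
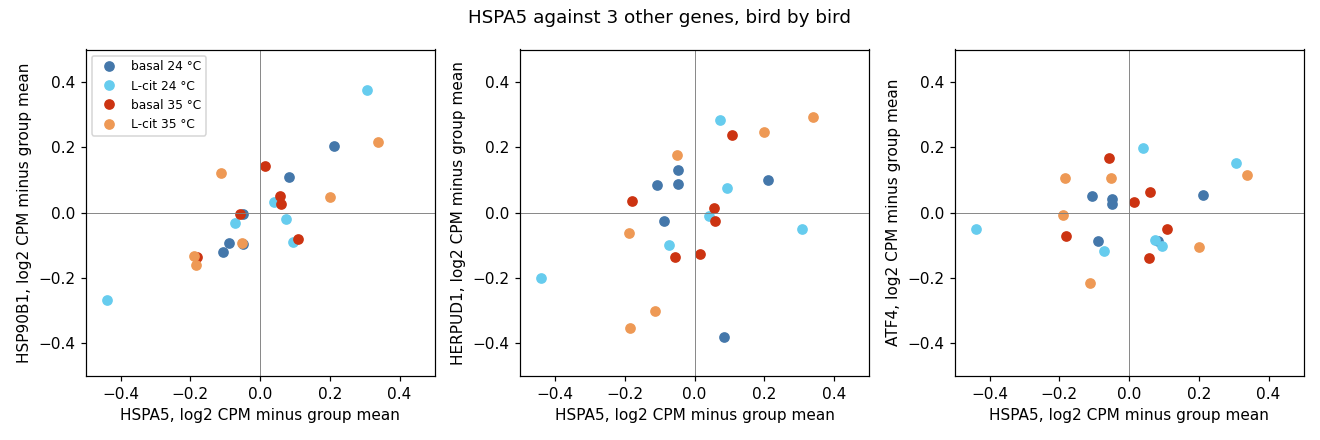
HSPA5 against HSP90B1, HERPUD1 and ATF4 in each bird, as log2 CPM minus the group mean, coloured by group. The points line up for HSP90B1 (r = 0.805), less for HERPUD1 (r = 0.476) and hardly for ATF4 (r = 0.20).

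Single birds set the ends of the range. The mean z-score of the 8 genes was highest in L-citrulline bird 3 at 24 °C (1.467) and in L-citrulline bird 1 at 35 °C (1.385), and lowest in L-citrulline bird 5 at 24 °C (-1.578). That last bird had the lowest HSPA5 (318 CPM), HSP90B1 (482 CPM) and XBP1 (134 CPM) of all 24, and also the highest TTR, 1966 CPM. The other birds of high TTR were less extreme. At 24 °C, basal diet bird 6 (TTR 1707 CPM) had a mean z-score of -0.631 and L-citrulline bird 1 (TTR 1468 CPM) one of -0.124. The choroid plexus markers, 11 of 11 in the table with only KCNE2 under 1 CPM in every bird, summed to 144 to 1882 CPM and 165 to 2262 CPM in the basal and L-citrulline groups at 24 °C, and to 166 to 266 CPM and 179 to 473 CPM at 35 °C. Their sum had r = -0.484 with the mean z-score (rho = -0.352), and -0.214 without the 2 farthest birds. They were 1 of 11 lists of cell type and tissue markers. The hypothalamic markers had r = 0.492 with the mean z-score (0.472 without the 2 farthest birds) and those of ciliated ependyma -0.420 (-0.381). Permutation p adjusted over the 11 lists was 0.2565 for choroid plexus, 0.2565 for hypothalamus and 0.288 for ependyma. Without the 3 libraries of high TTR, 7 pairs passed in place of 8, and the HERPUD1 log2 fold changes with heat were -0.35 on the basal diet and -0.33 on L-citrulline. The HSPA5 interaction was then -0.11, against 0.0013 with all 24 libraries. Over the fits other than those leaving out 1 library, heat on L-citrulline reached -0.14 for HSPA5, -0.12 for HSP90B1 and -0.10 for XBP1. With all libraries these were -0.02, -0.04 and -0.03. HSPA5 with L-citrulline at 24 °C reached 0.15, against 0.05.

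ATF4 was also set beside the same 11 lists of cell type and tissue markers, summed per bird. Its r with them ran from -0.560 (ciliated ependyma) to 0.756 (oligodendrocytes, 6 of 10 markers in the table, 15520 to 65550 CPM over the birds). Other glial lists were also positive, with r = 0.52 for microglia and 0.51 for astrocytes and tanycytes, and neurons had r = -0.37. No permutation test was made of these ATF4 values. HSPA5 had r = 0.130 with the oligodendrocyte markers. With the hypothalamic markers ATF4 had r = 0.713, but that sum (867 to 7021 CPM, 21 of 22 markers in the table) was mostly AVP. In bulk tissue, a change in the share of a cell type and a change of RNA per cell cannot be told apart, and the part of these markers in the ATF4 values was not tested.

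Among the genes other than the 8 themselves, those whose pattern over the 24 birds was most like the mean z-score of the 8, by Pearson r with group means taken off, were SEC23A (r = 0.779), TIE1 (0.758), CALR (0.756), EFNA2 (0.741), MRPS22 (0.736), FXR1 (0.733), UFD1 (0.723), RRAGC (0.715), MANF (0.708) and CRELD2 (0.699). Without the 2 birds farthest from the median, r was 0.354 for CRELD2 and 0.502 for MRPS22, and between 0.546 and 0.748 for the other 8 of these genes. CALR encodes calreticulin, a lectin chaperone of the ER, MANF and CRELD2 encode secreted proteins induced by ER stress in mammals, SEC23A a coat protein of vesicles that leave the ER, and UFD1 a cofactor of the ATPase that extracts proteins from the ER membrane. For HSPA5 alone the nearest genes outside the 8 were RRAGC (r = 0.812), MRPL47 (0.791) and EFNA2 (0.739). Outside the 8, XBP1 had EFNA2 (0.790), HYOU1 (0.788), a lumenal chaperone, and ESYT1 (0.776).

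The nearest genes of HERPUD1 and ATF4 were others. HERPUD1 was closest to JMJD6 (r = 0.786), which encodes a nuclear hydroxylase, then ADMP (0.772) and HOXB7 (0.740). The levels of the last 2 were low, with group means of 0.44 to 0.81 CPM for ADMP and 3.37 to 4.49 CPM for HOXB7. JMJD6 itself, looked at after its likeness was seen, had a log2 fold change with heat of -0.25 ± 0.12 on the basal diet and -0.014 ± 0.12 on L-citrulline (edgeR adjusted p 0.9997 and 0.997). ATF4 was closest to FAM177A1 (0.873), TMED2 (0.868) and RHOA (0.851). These values were picked as the highest among the genes outside the 8 that have a symbol, and are given as a description.

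Around the 8 genes, 7 lists of the secretory pathway and stress response held 198 symbols, some of them older names of a listed gene. In the table and kept were 161 genes. The ATF4 target list held 41 symbols and kept 26 genes. DDIT3, TRIB3 and PPP1R15A, among others, had no row under that symbol and could not be followed. None of the 161 genes was called in any comparison. With heat on the basal diet 83 were higher and 78 lower, and 4 had an unadjusted p under 0.05 (2.48%, beside 3.69% of all genes). With heat on L-citrulline 75 were higher and 86 lower, and 7 had an unadjusted p under 0.05 (4.35%, beside 6.71% of all genes). The medians of the lists ran from -0.04 (disulphide isomerases and oxidases) to 0.03 (ATF4 targets) on the basal diet and from -0.03 (ER-associated degradation) to 0.02 (sensors and regulators) on L-citrulline.

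**Figure D5:**
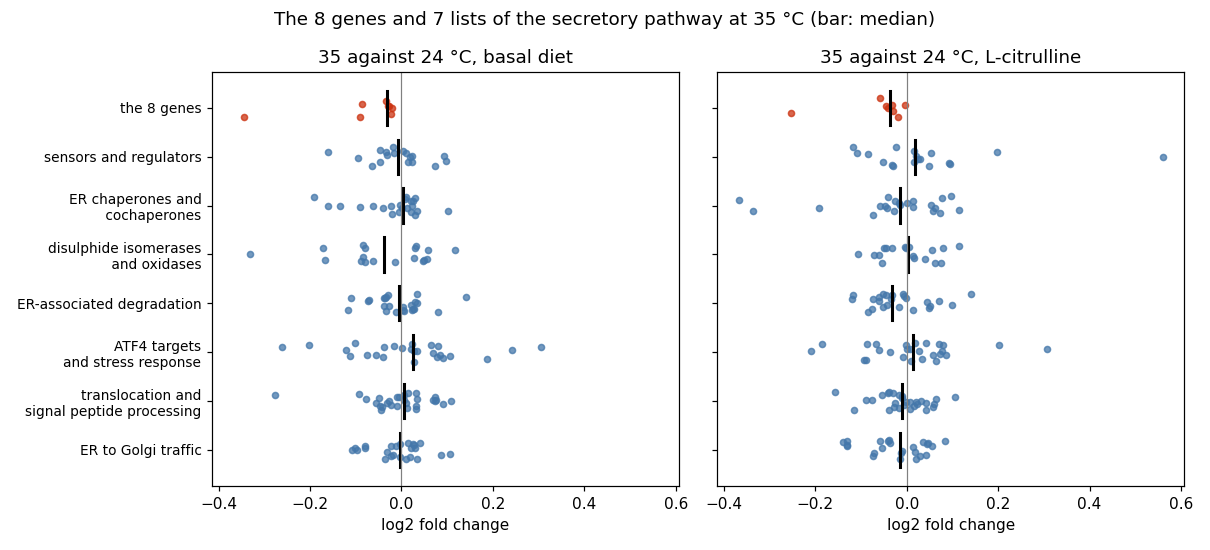
Log2 fold change with heat of the 8 genes (red) and of the genes of 7 lists (blue), on the basal diet and on L-citrulline, with a bar at each median. HERPUD1 is the red point at -0.34 and -0.25, and the list medians lie between -0.04 and 0.03.

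The 3 sensors did not differ detectably with heat. On the basal diet the means without and with heat were 28.1 and 28.4 CPM for ERN1, 42.9 and 43.6 CPM for EIF2AK3 and 42.8 and 45.7 CPM for ATF6, which gave log2 fold changes of 0.02 ± 0.10, 0.02 ± 0.06 and 0.10 ± 0.07. On L-citrulline they were, in the same order, 0.02 ± 0.10, 0.03 ± 0.06 and -0.02 ± 0.07. DDIT3, the factor CHOP, had no row under that symbol and was not analysed.

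The list genes with the lowest unadjusted p came from more than 1 list, though SESN2 and AARS (heat on the basal diet) shared the ATF4 target list. For heat on the basal diet they were SESN2, a sestrin induced under amino acid and ER stress in mammals (0.31 ± 0.12), SEC61G, a subunit of the translocon (-0.28 ± 0.11), COPA, a subunit of the COPI coat (0.09 ± 0.04), and AARS, an alanyl-tRNA synthetase (0.11 ± 0.05). For heat on L-citrulline they were SURF4, a cargo receptor of ER export (-0.13 ± 0.04), UGGT2, a relative of the glucosyltransferase that checks glycoprotein folding (-0.34 ± 0.13), HERPUD2, the paralogue of HERPUD1 (0.14 ± 0.06), and EIF2S1, which encodes eIF2-alpha (-0.11 ± 0.05). All had edgeR adjusted p of 0.554 or more.

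For L-citrulline at 24 °C they included STT3A, a catalytic subunit of oligosaccharyltransferase (0.17 ± 0.06), WARS, a tryptophanyl-tRNA synthetase (-0.14 ± 0.06), and SEC23A (0.16 ± 0.07). At 35 °C they were SESN2 (-0.29 ± 0.12), FAM8A1 (0.20 ± 0.09), TMED10 (0.08 ± 0.04) and EIF2AK2, the kinase PKR (0.28 ± 0.14). The EIF2AK2 value was 0.09 (unadjusted edgeR p 0.406) without L-citrulline bird 6 at 35 °C. SESN2 also had the lowest interaction p of the lists, at 11.1 and 13.7 CPM on the basal diet at 24 and 35 °C. Its interaction was -0.49 ± 0.17 on the log2 scale (edgeR p 0.00696, adjusted p 0.556). CARS (0.15 ± 0.07) and CTH (-0.18 ± 0.08) were also among the lowest. SESN2, CARS and CTH all belong to the ATF4 target list. Of its 26 genes, 11.5% had an unadjusted p under 0.05 for the interaction, beside 7.56% of all genes.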

How the data were processed

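Per the submitters' processing notes, the tools were HISAT2, TopHat, HTSeq and DESeq with the GRCg6a build; the sources used here state neither their roles nor strandedness. The deposited values were read counts per gene and FPKM, which equal the count per length and column total. The authors' deposited comparison tables hold log2 fold changes with p-values. All per-sample columns were matched to samples by their titles.

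From the counts, edgeR 4.0.16 (R 4.3.3) fitted 4 group means over 24 libraries (TMM scaling, filterByExpr, quasi-likelihood test, Benjamini-Hochberg adjustment, threshold 0.05). The common biological coefficient of variation was 0.186, and 2 groups were compared with a median SE of 0.113 (log2), which sets the precision. Libraries held 12635239 to 15001037 counts. The FPKM served only for levels between genes. Correlations used log2 CPM with a prior count of 2. The fit was also run on simulated counts as a check of the code, and its outcome is not given here. Those counts were drawn independently for each gene, so genes that vary together across birds were not simulated. Alternatives were DESeq2 1.42.0, limma 3.58.1 (voom), other scalings, no filter, a replicate block, a W-linked term, and left-out libraries.

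The genes and lists were chosen with earlier results of these data known. Named genes were the 8, the 3 sensors, the 4 list genes with the lowest p in each comparison of 2 groups and the interaction, and the genes of highest likeness. Of these, 1 gene is not reported here. None of the 60 pairs of libraries within a group agreed within sampling noise. Sequences were not analysed here.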

Additional observations from a re-analysis of the deposited data

Results flagged for a closer look

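HERPUD1 in bird 5 of the basal diet group at 24 °C, at 17.8 CPM, lay far below the other 5 birds of its group, which measured 22.8 to 25.4 CPM. Its gap to the nearest bird was 0.657 of the group's whole range, above the 95% critical value of Dixon's test for 6 samples. It was the only one of 32 groups (8 genes in 4 groups) to pass, and chance passes about 1 in 20. Without this bird the log2 fold change of HERPUD1 with heat on the basal diet was -0.41 (unadjusted edgeR p 0.00116) in place of -0.34, and with L-citrulline at 24 °C it was -0.013 in place of 0.05.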

How the results depend on the processing

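None of the 8 genes passed the adjusted threshold in any fit run, under any of the alternatives. HERPUD1 kept a log2 fold change below 0 with heat in each fit, from -0.41 to -0.32 on the basal diet and from -0.33 to -0.19 on L-citrulline. The replicate numbers of the groups were not seen to pair the birds (14 of 36 same-numbered pairs of libraries had r over 0.1, median -0.0772). Libraries of different numbers were not set beside them, so these values cannot decide whether the birds were paired. With the replicate block HERPUD1 was -0.34 (unadjusted edgeR p 0.000633) and -0.26 (unadjusted edgeR p 0.00521). With that block no gene of the 8 was called, and 11 pairs of genes were correlated in place of 8. With the W-linked term, ATF4 with DNAJB9 passed (r = 0.722, permutation adjusted p 0.0014). HSPA5 with DNAJB9 (r = 0.541), XBP1 with DNAJB9 (0.415) and XBP1 with SDF2L1 (0.564) then no longer passed (permutation adjusted p 0.052, 0.105 and 0.052). The number of the 8 at unadjusted p under 0.05 for L-citrulline at 35 °C was 0 in place of 1 with total counts, no filter, DESeq2, limma voom, the replicate block, the W-linked term and only the groups compared; it was 0 in place of 1 for L-citrulline averaged over the temperatures with the W-linked term, and for heat on L-citrulline with only the groups compared. Leaving out 1 library gave 0 to 1 for each of these 3 counts. It gave 5 to 8 genes lower with heat on the basal diet, 4 to 8 lower with heat on L-citrulline, 4 to 8 higher with L-citrulline at 24 °C, and 5 to 12 correlated pairs (5 without L-citrulline bird 3 at 24 °C).

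Log2 fold changes near 0 changed sign, none of them past the threshold; beyond the alternatives' own construction the cause was not tested. With median-of-ratios size factors the interaction was -0.00037 for HSPA5 and -0.00068 for ERN1, and with DESeq2 -0.00034 and -0.00013. With total counts the interaction was -0.029 for HSPA5, -0.026 for XBP1, -0.025 for EIF2AK3 and -0.029 for ERN1, heat on L-citrulline was -0.0054 for ERN1, L-citrulline at 24 °C was 0.0032 for SDF2L1, and r of XBP1 with ATF4 was -0.033. HSP90B1 with L-citrulline at 35 °C was -0.018 with total counts, -0.00058 with no filter, -0.0025 with limma voom, -0.0033 with the replicate block, -0.039 with the W-linked term, -0.0072 with only the groups compared and -0.0050 without the 3 libraries of high TTR. With limma voom ERN1 was -0.0044 for heat on the basal diet. ATF4 with L-citrulline at 24 °C was -0.0025 with limma voom and -0.0020 with the replicate block. With the W-linked term HSP90B1 was -0.021 for L-citrulline at 24 °C and -0.030 averaged over the temperatures. Without the libraries of high TTR SDF2L1 was 0.020 with L-citrulline at 24 °C, the interaction was -0.11 for HSPA5, -0.053 for XBP1 and -0.014 for EIF2AK3, and r was -0.093 for HERPUD1 with HSP90B1 and -0.17 for XBP1 with ATF4.

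Leaving out 1 library moved the following across 0. For heat on the basal diet, HSPA5 ran from -0.043 to 0.024, HSP90B1 from -0.053 to 0.020, PDIA4 from -0.074 to 0.014, EIF2AK3 from -0.022 to 0.064 and ERN1 from -0.085 to 0.070. For heat on L-citrulline, HSPA5 ran from -0.098 to 0.045, HSP90B1 from -0.091 to 0.043, XBP1 from -0.084 to 0.0070, ATF4 from -0.031 to 0.036, DNAJB9 from -0.083 to 0.012, ERN1 from -0.026 to 0.045 and ATF6 from -0.062 to 0.0053. For heat averaged over the diets, HSPA5 ran from -0.059 to 0.012 and HSP90B1 from -0.057 to 0.0096. For L-citrulline at 24 °C, HSPA5 ran from -0.014 to 0.13, HERPUD1 from -0.013 to 0.092, HSP90B1 from -0.066 to 0.069, ATF4 from -0.039 to 0.025 and SDF2L1 from -0.040 to 0.020. For L-citrulline at 35 °C, HSPA5 ran from -0.024 to 0.089, HSP90B1 from -0.047 to 0.031, SDF2L1 from -0.046 to 0.0019 and ATF6 from -0.081 to 0.0067. Averaged over the temperatures HSP90B1 ran from -0.033 to 0.035. For the interaction, HSPA5 ran from -0.078 to 0.066, HSP90B1 from -0.068 to 0.066, XBP1 from -0.049 to 0.042, PDIA4 from -0.073 to 0.015, SDF2L1 from -0.041 to 0.017, EIF2AK3 from -0.037 to 0.051 and ERN1 from -0.053 to 0.0998. The r ran from -0.14 to 0.089 for XBP1 with ATF4, from -0.074 to 0.24 for ATF4 with PDIA4, from -0.033 to 0.27 for ATF4 with SDF2L1, from -0.079 to 0.15 for HERPUD1 with HSP90B1 and from -0.086 to 0.21 for HERPUD1 with ATF4.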

Other observations

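The 12 libraries with high chromosome W signal had more DNAJB9 (51.0 CPM on average) than the 12 with low signal (45.6 CPM), a log2 difference of 0.14 ± 0.05 with the 4 groups in the fit (unadjusted edgeR p 0.0125, adjusted p 0.222). XBP1 averaged 165.8 and 154 CPM (0.10 ± 0.05, adjusted p 0.450), and HSPA5 444 and 407 CPM (0.12 ± 0.07, adjusted p 0.609). HERPUD1 averaged 21.6 CPM in both (-0.04 ± 0.09, adjusted p 0.935). At an unadjusted p under 0.05, 10.6% of the 13742 genes differed between these libraries.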
